A study of Mus musculus with 4 samples.

Results

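Ccl3-expressing neutrophils are described here as they occurred in mouse skin tumours profiled by single-cell RNA sequencing. Barcodes (droplets taken as single cells) entered the group when they had at least 200 detected genes and under 20% mitochondrial unique molecular identifiers (UMIs, each a counted RNA molecule). They also had S100a8 and S100a9 together at 1% or more of UMIs, at least 2 UMIs of Csf3r, G0s2 and Il1b summed together, and at least 2 UMIs of Ccl3. Barcodes with any Cd3e UMI, with more than 2 UMIs of the complement genes C1qa, C1qb and C1qc, or with Krt14 at 1% of UMIs or more were left out. The members were thus chosen by measured UMI counts of these genes, and their levels of them are no finding. The rule took in 4306 barcodes, out of 7143 that met every condition but the one on Ccl3 (called neutrophils below) and 50887 that passed the filters on genes and mitochondrial UMIs. Of the other neutrophils, 2075 had no Ccl3 UMI (called Ccl3-zero neutrophils) and 762 had exactly 1.

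Neutrophils are short-lived white blood cells that enter inflamed tissue and tumours from the blood, following chemokines read by the receptor Cxcr2. Ccl3 (macrophage inflammatory protein 1 alpha) is a chemokine that attracts monocytes, T cells and other leukocytes, in part through the receptor Ccr1, and neutrophils make it once activated in tissue. Neutrophils that make Ccl3 have been described in several mouse tumours as a late, tissue-adapted state, with genes of the NF-kB pathway and of low oxygen among those they express.

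The tumours arose in LKPR mice, which carry Lgr5CreER, p53 fl/fl and Rosa26-YFP among their alleles, so that tamoxifen switches on YFP and deletes p53 in Lgr5-expressing cells, in skin the hair follicle stem cells. All mice had 4 daily injections of 2.5 mg tamoxifen from postnatal day 28, and tumours were seen from 7 to 9 weeks after it. The NP137 group received NP137, an antibody that binds the secreted guidance protein netrin-1, at 10 mg/kg into the peritoneum every 2 days from 4 weeks after tamoxifen until death, while the labels give no agent for the control group. Each group had 2 libraries, made from all live sorted tumour cells by 10x 3′ chemistry. The labels do not say whether a library came from 1 animal, so p-values measure only the spread between these libraries. The recombined alleles belong to the tumour lineage, and the labels name no alteration of the neutrophils themselves.

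The 4 libraries held 8328 to 18146 deposited barcodes and 69517664 to 149021188 UMIs in all. Sets of 4 values are given below in the order control 1, control 2, NP137 1 and NP137 2. The Ccl3-expressing neutrophils numbered 597, 132, 781 and 2796, with median depths of 1709, 4443, 1064 and 1606 UMIs and 777, 1403, 548 and 632 genes. Control 2 therefore gave the fewest cells at the greatest depth, and NP137 2 gave more than all other libraries together. Between 19 and 77 filtered barcodes were shared by any pair of libraries, but no more than 1 member was. Xist, from the inactive X chromosome of females, and Y-linked RNA were both present among the members of NP137 1, where 76 cells had Xist alone and 81 had Y-linked RNA alone, so this library mixes cells of both sexes. Elsewhere one kind prevailed: Xist alone was found in 186 members of control 1 and 1178 of NP137 2, and Y-linked RNA alone in 71 of control 2. Both kinds in 1 barcode were seen in 0, 3, 12 and 1 members.

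The neutrophil label held for most listed neutrophil genes that the rule did not use. Retnlg, a resistin-like granule product, stood at least 63.1-fold above the barcodes that were no neutrophils in every library, on the CPM scale (UMIs of a gene summed over cells and scaled to a common total) with 10 CPM added. The corresponding smallest ratio was 14.4 for Ifitm6, 17.5 for Cxcl2 and 4.70 for Ly6g, the classical mouse neutrophil antigen. Ifitm6 and Cxcl2 are not among the 12 listed neutrophil markers. Of those outside the rule, Mmp9 was the exception, with a smallest ratio of 0.941, and the others had 4.70 or more. In NP137 2, Mmp9 was at 376 CPM in the members and 400 CPM in the non-neutrophil barcodes. The 12 neutrophil markers summed to 81965, 81763, 89530 and 80950 CPM in the members. This list includes S100a8, S100a9 and Csf3r of the rule, so the sum is no independent finding. In control 1, S100a8 stood at 26450 CPM and S100a9 at 43534 CPM. Of the macrophage list, which the limit on complement genes trims, the members held 661, 940, 1199 and 646 CPM, below the 3311 to 4254 CPM of the other barcodes. T and natural killer cell markers summed to at most 28.3 CPM, dendritic cell markers to at most 29.1 CPM and eosinophil markers to at most 7.7 CPM. Those of B or plasma cells summed to 0, 0, 0.883 and 490.0 CPM, of mast cells or basophils to 7.11, 11.5, 71.6 and 57.2 CPM, of endothelium to 102, 167, 102 and 71.0 CPM and of red cells or platelets to 216, 26.9, 574 and 542 CPM. NP137 2 thus stood apart in B or plasma cell RNA, which was also highest in its non-neutrophil barcodes, at 1621 CPM. Keratinocyte markers summed to 1135, 2502, 5148 and 1005 CPM and fibroblast markers to 3948, 2563, 2334 and 8093 CPM, in each library below the level of the non-neutrophil barcodes. RNA of tumour and stroma was thus present in these droplets, and its part in the results below was not tested.

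Members just above the limit on S100a8 and S100a9 were few beside all members, while barcodes below it were not. Their median share of UMIs was 5.30, 5.85, 5.74 and 6.81%, and 64, 11, 56 and 180 members lay between 1 and 1.5%. Between 0.5 and 1%, just outside, were 84, 7, 62 and 242 barcodes that met all other conditions, more than just inside in all libraries but control 2. A further 189, 85, 144 and 608 such barcodes lay under 0.5%. On the side of Ccl3, 65, 6, 226 and 219 members had exactly 2 UMIs, while 85, 15, 349 and 313 neutrophils had 1 and stayed outside. Some members, 116, 11, 28 and 488, carried 1 or 2 UMIs of complement C1q. Of the members, 41, 5, 86 and 238 were among the barcodes with the highest doublet scores of their library.

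Ccl3 itself lies on chromosome 11, at chr11:83647844-83649355 on the minus strand (mm10, GENCODE annotation, protein-coding), and its neighbour Ccl4 at chr11:83662584-83664683 on the plus strand, 13.2 kb away. Cxcl3 and Cxcl2, which encode ligands of Cxcr2, lie on chromosome 5 at chr5:90786103-90789600 and chr5:90903871-90905938. RefSeq promoters (GRCm38.p6, 250 bases before each listed start) were matched for 9 of 11 genes looked up. The promoters of 3 chemokine genes that the members expressed strongly are printed 5′ to 3′ on the gene's strand, with capitals for matches, on either strand, to an NF-kB motif (GGG, any 2 bases, then TTTCC) or to the hypoxia element core ACGTG.

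Ccl3, chr11:83649379-83649628, minus strand: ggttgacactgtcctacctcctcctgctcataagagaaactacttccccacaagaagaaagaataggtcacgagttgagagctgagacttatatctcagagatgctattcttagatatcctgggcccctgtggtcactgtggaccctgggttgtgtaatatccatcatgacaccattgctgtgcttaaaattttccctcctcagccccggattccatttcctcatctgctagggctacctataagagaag
Cxcl3, chr5:90785851-90786100, plus strand: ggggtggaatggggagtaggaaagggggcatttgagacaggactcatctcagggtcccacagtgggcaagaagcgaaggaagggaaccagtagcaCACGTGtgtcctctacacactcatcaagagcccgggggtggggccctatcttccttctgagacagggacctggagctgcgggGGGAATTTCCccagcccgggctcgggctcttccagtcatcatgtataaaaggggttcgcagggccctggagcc
Cxcl2, chr5:90903649-90903898, plus strand: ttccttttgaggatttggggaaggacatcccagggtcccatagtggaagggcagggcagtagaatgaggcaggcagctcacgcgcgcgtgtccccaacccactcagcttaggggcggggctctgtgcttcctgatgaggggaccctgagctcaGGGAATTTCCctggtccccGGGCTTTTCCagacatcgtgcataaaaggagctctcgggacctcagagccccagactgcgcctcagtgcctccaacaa

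The Cxcl3 promoter held 1 NF-kB match, beginning 73 bases before the start, and the palindrome CACGTG, which the hypoxia core matches on both strands. Cxcl2 held 2 NF-kB matches, beginning 97 and 78 bases before the start. Hilpda, whose product blocks lipid breakdown at lipid droplets, held 1 match to the hypoxia core, 43 bases before one of its 2 listed starts, and Il1rn 1 NF-kB match before one of its 3. The Ccl3 window held neither spelling. Of all 32851 promoters in the table, 1.41% held the NF-kB spelling and 16.6% the hypoxia core, so the latter is common. A match is a description of letters and not a bound site.

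Ccl3-expressing cells made up most neutrophils in 3 libraries and a minority in NP137 1. Their share of neutrophils was 71.1% in control 1 (exact binomial 95% interval 67.9 to 74.1), 69.8% in control 2 (62.8 to 76.3), 36.9% in NP137 1 (34.9 to 39.0) and 69.9% in NP137 2 (68.5 to 71.3). The intervals cover counting error only. The group means were 70.5% ± 0.870 in controls and 53.4% ± 23.3 under NP137 (SD, n = 2 each), and the difference of -17.0 points was within the spread of the NP137 libraries (exact 2-sided permutation test, p = 0.667). With 2 libraries a group this test cannot give a p below 0.33. The NP137 2 value lay between the control values, so the groups overlapped. NP137 1 was also the shallowest library, with 1064 UMIs in its median member. Thinned to 1000 UMIs a cell, with 52, 4, 1201 and 686 shallower neutrophils left out, the share with at least 2 Ccl3 UMIs was 61.2, 55.1, 34.5 and 64.4%, so NP137 1 remained lowest at equal depth (NP137 minus control -8.69 points, exact permutation p = 1). Within NP137 1 the share was 37.4% among neutrophils with Xist alone and 42.0% among those with Y-linked RNA alone, and both intervals lay below the values of the other libraries.

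**Figure D1:**
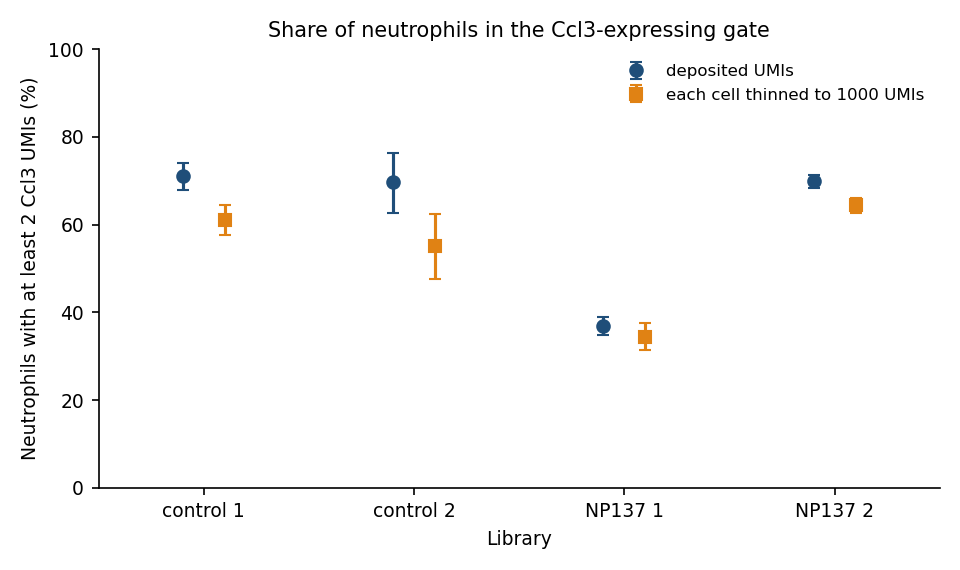
Share of neutrophils in the Ccl3-expressing gate in each library (percent, vertical axis; bars are exact binomial 95% intervals), as deposited and after thinning each cell to 1000 UMIs. NP137 1 stands at 36.9%, while the other libraries lie between 69.8 and 71.1% before thinning.

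Counted against all filtered cells, the members were 5.11, 2.32, 4.70 and 16.5%, and all neutrophils were 7.19, 3.33, 12.7 and 23.6%. Neutrophils as a whole were thus a larger share in both NP137 libraries than in both controls (difference 12.9 points, exact permutation p = 0.33, the smallest the design allows). For the Ccl3-expressing cells alone the groups overlapped (difference 6.90 points, exact permutation p = 0.667).

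Where the other Ccl3 RNA of the libraries lay is given as a description, since the members were chosen for theirs. The members held 50.1, 59.7, 51.9 and 65.5% of all Ccl3 UMIs of their library. Macrophage barcodes, with at least 3 UMIs of complement C1q, held 20.01, 10.7, 10.6 and 11.6%. Barcodes of no class used here held 27.4, 27.1, 27.1 and 15.2%, more than the macrophages in every library. Ccl3 stood at 5606, 8116, 3840.3 and 7795 CPM in the members and at 241, 381, 224 and 436 CPM in the macrophages. Ccl4, a chemokine close to Ccl3, was divided otherwise, with 1433, 2974, 838 and 2218 CPM in the members and 1129, 1064, 871 and 638 CPM in the macrophages. The macrophage level of Ccl4 thus exceeded that of the members in NP137 1 and was below it elsewhere. At most 0.872% of Krt14-rich epithelial barcodes and 1.39% of collagen-rich barcodes had 2 or more Ccl3 UMIs after thinning to 1000. The Krt14-rich class was limited to S100a8 and S100a9 under 1% of UMIs, and the collagen-rich class to barcodes outside the neutrophil gate. Barcodes with much neutrophil RNA were thus left out beforehand, and the amount of free Ccl3 RNA was not tested. In NP137 2 the share with 2 or more Ccl3 UMIs was higher among barcodes with Cd3e, at 6.08%, and among barcodes of no class, at 8.42%. The epithelial barcodes were deeper before thinning, with median UMI counts of 5213.5 to 18299.

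Within the members, Ccl3 varied widely. The median cell had 9, 27, 4 and 15 Ccl3 UMIs and the highest cell 107, 259, 30 and 142. At least 10 UMIs were found in 48.4, 71.2, 14.98 and 63.1% of members. Depth differed among the libraries, and the lowest median again belonged to NP137 1. After thinning, the median member had 4, 5, 3 and 7 Ccl3 UMIs per 1000.

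The other genes that mark this state were compared between the members and the Ccl3-zero neutrophils of the same libraries. Ccl3 chose the cells and the markers were proposed from these data, so the values are a description without a test. Cxcl3 stood at 2318, 3676, 1319 and 5266 CPM in the members and at 1621, 667, 837 and 2207 CPM in Ccl3-zero neutrophils. Hcar2, the receptor for nicotinic acid and the ketone body beta-hydroxybutyrate, stood at 659, 1196, 911 and 1265 CPM against 274, 342, 429 and 572 CPM. Il1rn, which encodes the natural antagonist of the interleukin-1 receptor, stood at 737, 890, 437 and 1026 CPM against 277, 282, 147 and 414 CPM. For Hilpda the levels were 1491, 1843, 1495 and 2148 CPM against 872, 722, 849 and 977 CPM. Every marker was higher in the members in every library, and the 4 genes were also present, at lower levels, in neutrophils without a Ccl3 UMI. In barcodes that were no neutrophils these genes were rare: their levels in the members were at least 7.72-fold higher for Cxcl3, 17.2-fold for Hcar2, 13.2-fold for Il1rn and 9.05-fold for Hilpda, 10 CPM added.

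**Figure D2:**
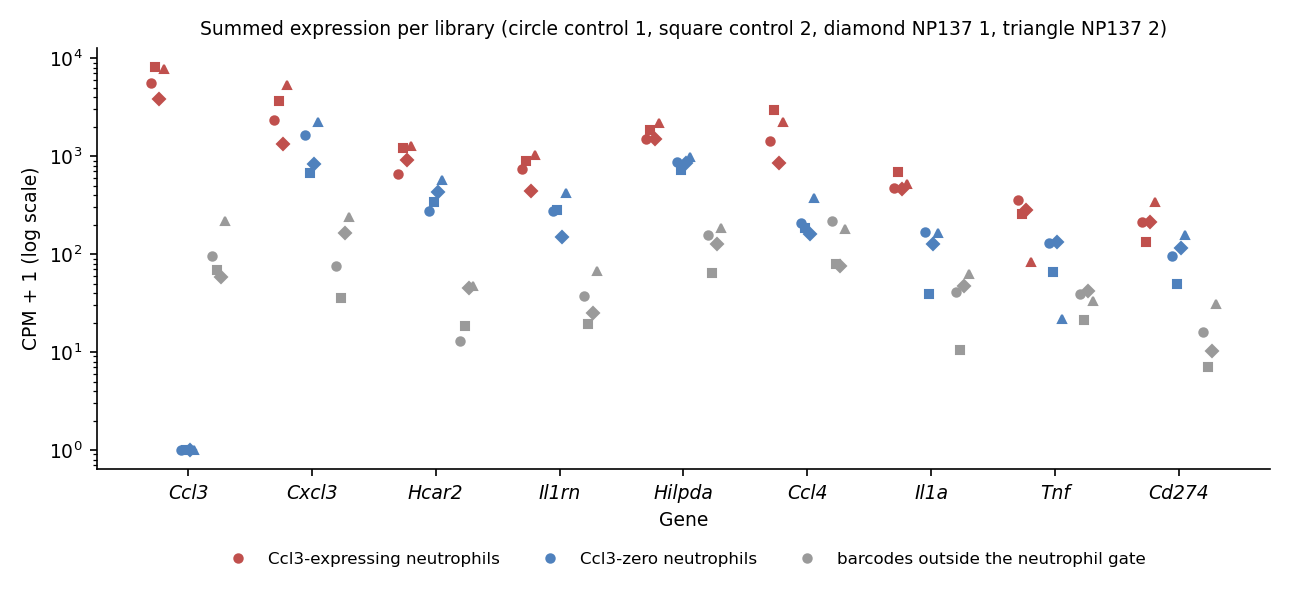
CPM plus 1 (log axis) of Ccl3, its 4 companion markers and Ccl4, Il1a, Tnf and Cd274, 1 point per library, in Ccl3-expressing neutrophils, Ccl3-zero neutrophils and barcodes outside the neutrophil gate. Cxcl3, Hcar2, Il1rn and Hilpda are higher in the Ccl3-expressing than in the Ccl3-zero cells of each library and lowest outside the neutrophils, and Ccl3 is 0 in Ccl3-zero cells by the rule.

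At this depth many molecules go unseen, so a marker without a UMI in a cell may still be expressed. At 1000 UMIs, all 4 of Cxcl3, Hcar2, Il1rn and Hilpda were seen in 9.09, 18.9, 7.04 and 25.1% of the members, and none in 7.52, 5.30, 9.39 and 3.92%. Among Ccl3-zero neutrophils all 4 were seen in at most 5.15% and none in 20.4, 28.2, 30.0 and 14.4%. In control 1, for instance, Hilpda was seen in 65.0% of thinned members, Cxcl3 in 51.0%, Il1rn in 44.6% and Hcar2 in 43.5%.

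Across the 2639 genes measured at a mean of at least 50 CPM in either kind of neutrophil, only 5 (0.189%) were at least 2-fold higher in the members in all 4 libraries, and 0 (0%) were at least 2-fold lower. Counting any difference of one sign in all 4 libraries, 13.1% were higher and 18.9% lower, and the median log2 ratio over all these genes was -0.06. The Ccl3-zero neutrophils numbered 158, 42, 984 and 891, so the ratios of control 2 rest on few cells. Control 2 gave the highest ratio for several genes, among them Il1a, at 3.85 on the log2 scale. Without control 2 the counts were again 5 and 0, of 2599 genes. The 5 in all 4 libraries were Ccl4, Il1a, Il1rn, Hcar2 and Tnf. Ccl4 was 204, 184, 160 and 368 CPM in Ccl3-zero neutrophils, which put the members higher by 2.32 to 3.94 on the log2 scale. Il1a, an interleukin-1 released by damaged or activated cells, stood at 470, 680, 459 and 522 CPM in the members and 168, 38.0, 126 and 163 CPM in Ccl3-zero neutrophils. Tnf, the tumour necrosis factor gene, stood at 358, 258, 278 and 81.6 CPM in the members and 129, 65.1, 131 and 20.9 CPM in Ccl3-zero neutrophils. Its level in NP137 2 was the lowest of the 4 in both kinds of cell.

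The members were deeper than the Ccl3-zero neutrophils in every library, whose medians were 1594.5, 3360, 799.5 and 1272 UMIs, so the contrast was repeated with all cells at 1000 UMIs. The log2 differences of Ccl4 (2.61 to 3.05), Il1a (1.54 to 2.98), Il1rn (1.30 to 1.73) and Hcar2 (1.07 to 2.31) remained above 1. Tnf dropped below 1 in control 2, at 0.83, where 39 Ccl3-zero neutrophils remained after thinning. F10, the coagulation factor X gene, and Cd274, which encodes the checkpoint ligand PD-L1, passed 1 in all libraries, with smallest values of 1.01 and 1.04. At equal depth 7 genes were at least 2-fold higher in all libraries and 3 at least 2-fold lower, against 5 and 0 before thinning. Ifitm6 was among the lower ones, at -1.40 to -1.16.

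**Figure D3:**
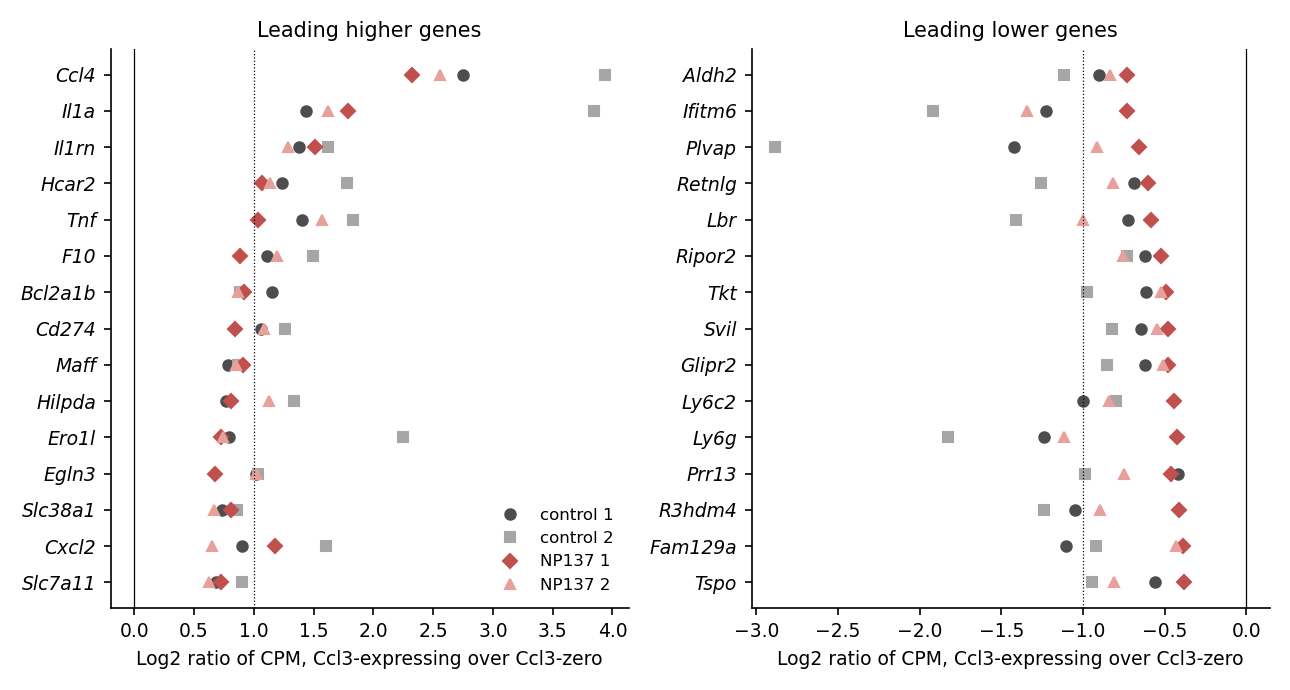
Log2 ratio of CPM (10 CPM added), Ccl3-expressing over Ccl3-zero neutrophils, 1 point per library, for the 15 genes with the most stable difference in each direction; dotted lines mark 2-fold. Ccl4 shows the largest difference, 2.32 to 3.94, and Retnlg and Ly6g lie below 0 in every library.

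Some of the gene lists described next hold markers of the group, which were proposed from these data. Cxcl3 is counted among the chemokines, Il1rn among the cytokines, Hilpda among the hypoxia genes, and Hcar2 and Hilpda among the lipid genes. That these were higher in the members was known beforehand. Among chemokine genes, 5 of 10 measured were higher in the members in all libraries and 0 lower, with a median log2 ratio of 0.66. Cxcl2, the most abundant of them, stood at 44787, 53887, 38419 and 48041 CPM in the members and 23979, 17692, 16972 and 30574 CPM in Ccl3-zero neutrophils. Ccl2, which attracts monocytes, differed by 0.38 to 2.35 and Ccl9 by 0.60 to 1.49. Of 8 chemoattractant receptor genes, 4 were higher and 1 lower. Ccrl2, a receptor that binds chemerin without signalling, differed by 0.37 to 0.94 and Ccr1, a receptor for Ccl3 itself, by 0.13 to 0.53, while Cxcr2 was lower, by -0.81 to -0.06.

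Of 12 cytokine genes of the interleukin-1 and TNF group, 7 were higher and 0 lower, median 0.48. Beside Il1a, Il1rn and Tnf these included Il23a, a subunit of interleukin-23, at 117, 100, 87.5 and 151 CPM in the members and 11.2, 65.1, 31.9 and 72.1 CPM in Ccl3-zero neutrophils. Of 26 NF-kB targets and feedback genes, 15 were higher and 0 lower, median 0.37. The inhibitor genes of the pathway were among them, with log2 differences of 0.58 to 0.77 for Nfkbia, 0.46 to 0.62 for Nfkbiz and 0.61 to 0.80 for Tnfaip3. So were Sod2, a mitochondrial superoxide dismutase, at 0.61 to 1.24, and Ier3, at 0.63 to 1.19. Bcl2a1b, a survival gene of the Bcl2 family, differed by 0.87 to 1.15, but it has near-identical copies among which reads may be split.

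Of 32 genes of hypoxia and glycolysis, 19 were higher and 1 lower, median 0.22. Egln3, an oxygen sensor that is itself induced by low oxygen, stood at 169, 88.5, 140.0 and 269 CPM in the members and 78.3, 38.0, 83.4 and 128 CPM in Ccl3-zero neutrophils. Ero1l, an oxidase of protein folding, differed by 0.73 to 2.25 and Pfkfb3, which speeds glycolysis, by 0.56 to 2.20. Vegfa, the vessel growth factor gene, differed by only 0.01 to 0.58. Hif1a, the gene of the oxygen-regulated transcription factor, was the lower one, by -0.57 to -0.10. Of 11 lipid droplet and metabolite genes, 6 were higher and 0 lower, with the markers Hcar2 and Hilpda among the 6. Others were Plin2, a lipid droplet coat protein, at 0.27 to 1.11, and Acod1, the itaconate-forming enzyme, at 0.61 to 1.29.

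Genes typical of neutrophils fresh from the blood lay the other way. Of 24 in the circulating list, 16 were lower in the members in all libraries and 2 higher, with a median log2 ratio of -0.51, and of 18 granule protein genes 8 were lower and 1 higher, median -0.65. Retnlg stood at 5072, 2385, 4940.1 and 2761 CPM in the members against 8167, 5724, 7494 and 4879 CPM. Ly6g stood at 58.3, 37.2, 66.3 and 93.0 CPM against 151, 157, 92.4 and 213 CPM. Ifitm6, a membrane protein of the interferon-induced family, differed by -1.92 to -0.73 and Mmp8, the neutrophil collagenase, by -1.06 to -0.35. The higher members of these lists included Slpi, a protease inhibitor, at 0.24 to 1.38.

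Of 29 genes described in tumour-associated neutrophils, 18 were higher and 1 lower, median 0.40. Cd274 stood at 209, 131, 210.3 and 337 CPM in the members against 95.03, 48.8, 113 and 154 CPM. Hmox1, the haem-degrading enzyme, differed by 0.44 to 2.38 and Fth1, a ferritin subunit, by 0.43 to 0.75. Siglecf, a lectin of long-lived neutrophils in mouse lung tumours, was rare in both kinds of cell. Among other lists, of 9 interferon genes 1 was higher and 0 lower (median 0.13), of 4 class II antigen presentation genes 0 and 0 (-0.11), of 25 immediate early and heat shock genes 8 and 2 (0.10), and of 17 stress genes 8 and 1 (0.35). Of 11 cell death and survival genes 7 were higher and 1 lower (0.29), and of 12 mitochondrially encoded genes 7 and 0 (0.16).

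Levels were also followed over grades of Ccl3. In NP137 2, which had the most cells, Ccl4 stood at 368, 569, 894, 1339 and 2675 CPM in neutrophils with 0, 1, 2, 3 to 9 and 10 or more Ccl3 UMIs. Retnlg went the other way there, at 4879, 4317, 3861, 3262 and 2470.1 CPM. In the same order Hcar2 stood at 572, 669, 725, 964 and 1429 CPM. Cxcl3 was flat at first in control 1, at 1621, 1604, 1627 and 1720 CPM, and reached 2917 CPM only in cells with 10 or more Ccl3 UMIs. Tnf did not follow the lowest grades either: over 0, 1 and 2 UMIs it stood at 129, 68.1 and 72.0 CPM in control 1 and at 20.9, 21.9 and 22.2 CPM in NP137 2. With 10 or more it stood at 506 and 100.1 CPM. Retnlg in control 1 stood at 8167 CPM with 0 UMIs, 8633 with 1 and 4681 with 10 or more. Cells with more Ccl3 UMIs were mostly deeper, with median depths from 1252 to 1798 UMIs over these grades in NP137 2. In control 2 the grades of 1 and 2 UMIs held 15 and 6 cells and are not read.

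**Figure D4:**
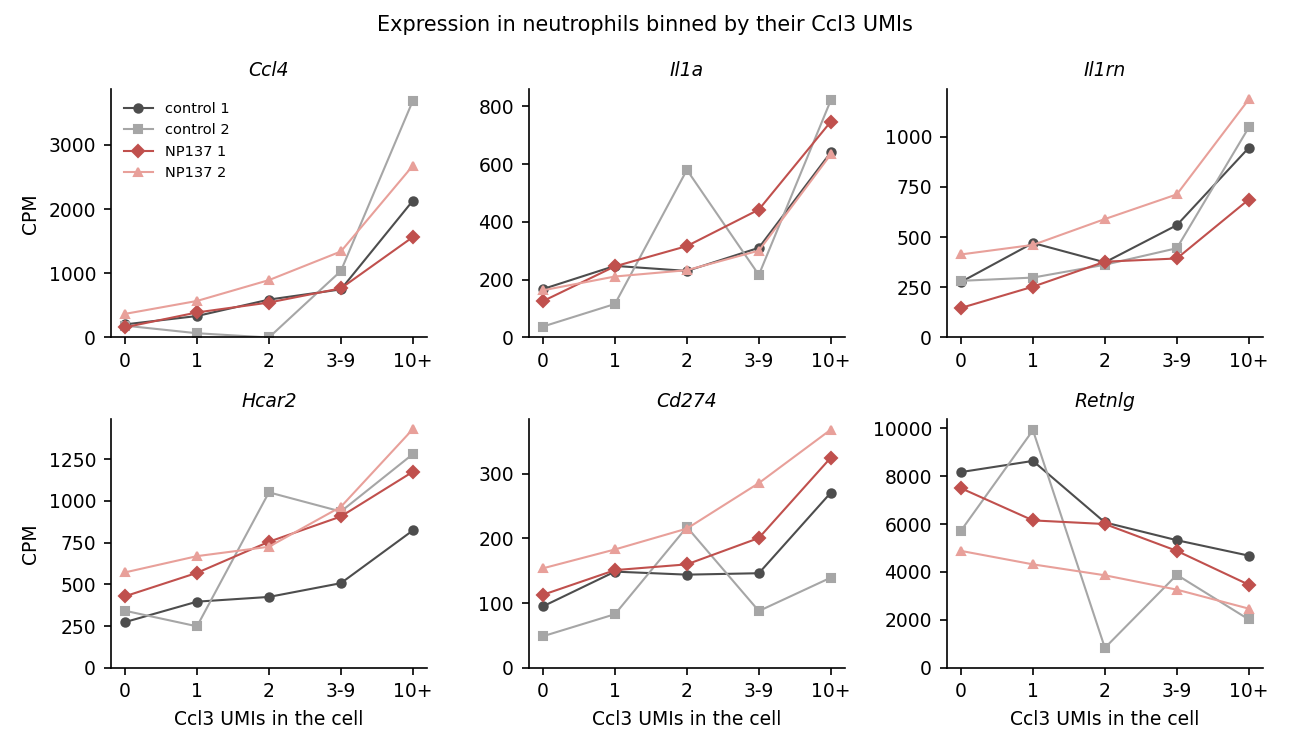
CPM of Ccl4, Il1a, Il1rn, Hcar2, Cd274 and Retnlg (vertical axes, linear, from 0) summed over the neutrophils with 0, 1, 2, 3-9 and 10 or more Ccl3 UMIs (horizontal axis), 1 line per library. In NP137 2 Ccl4 is lowest at 0 UMIs (368 CPM) and highest at 10 or more (2675 CPM), Retnlg lies the other way (4879 and 2470.1 CPM), and the jumps of control 2 fall in grades of 15 and 6 cells.

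A split among the members themselves, with every cell at 1000 UMIs, gave a like order for many of these genes. Members above their library's median Ccl3 numbered 283, 64, 140 and 1174, and those at or below it 289, 68, 286 and 1247. Il1a stood at 795, 1078, 729 and 928 CPM in the upper cells and 356, 294, 290.2 and 416 CPM in the lower ones. Ccl4 differed by 1.02 to 2.39 on the log2 scale, Ccl9 by 1.04 to 2.10, Tnf by 0.86 to 2.65 and Cd274 by 0.48 to 1.12. Ptgs2, the inducible cyclooxygenase, differed by 0.53 to 1.42. Ngp and Camp, granule proteins made in the bone marrow, were lowest relative to the other cells: Ngp stood at 42.4, 15.6, 64.3 and 19.6 CPM in the upper cells and 339, 324, 566 and 224 CPM in the lower ones. Stromal genes were also lower in the upper cells, with Col3a1, a fibrillar collagen, at 357, 453, 157 and 856 CPM against 865, 750.0, 388 and 1704 CPM. Their part in the other differences was not tested. Over all 2481 genes measured, 249 were higher and 477 lower in all libraries, with a median of -0.10. Of 27 NF-kB genes 17 were higher and 5 lower (median 0.30), of 33 hypoxia genes 11 and 0 (0.24), and of 24 circulating genes 3 and 15 (-0.37). Mitochondrially encoded genes went the other way than before: of 12, 0 were higher and 8 lower (-0.53), against 7 and 0 in the contrast with Ccl3-zero neutrophils.

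The design asks whether blocking netrin-1 changed these cells. UMIs were summed over the members of each library and compared between NP137 and control with edgeR (quasi-likelihood test, p-values adjusted by Benjamini-Hochberg over all genes tested). Of 8248 genes tested, 0 were called at an adjusted p under 0.05 (0% in either direction), 354 had an unadjusted p under 0.05, and the smallest adjusted p was 0.178. DESeq2 called 8 higher (0.097%) and 15 lower (0.182%). Each of the 23 was less abundant in the members than in the non-neutrophil barcodes in some or all libraries of the group with the higher level. Between the groups, 15.3% of genes were higher and 17.4% lower without overlap of the library values. In simulated data the edgeR test recovered 100% of genes changed by 4 on the log2 scale, 46.4% of those changed by 2 and 1.2% of those changed by 1, so 2-fold changes were mostly out of its reach.

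The markers of the group overlapped between treatments. On the scale of CPM with effective library sizes, Ccl3 was 5468 and 8558 in controls and 3839 and 8231 under NP137 (log2 fold change -0.22, SE 0.47). Cxcl3, at 2261 and 3877 against 1319 and 5559.8, had a log2 fold change of 0.17 (SE 0.66). Hcar2 was at 643 and 1262 against 911 and 1336, Il1rn at 718 and 938 against 437 and 1083, and Hilpda at 1454 and 1943 against 1494 and 2268. Their log2 fold changes were 0.24, -0.12 and 0.15, each smaller than its standard error of 0.41 to 0.48. Ccl4, Il1a and Cxcl2 overlapped as well, with log2 fold changes of -0.51, -0.22 and -0.17. Tnf was at 349 and 272 against 278 and 86.2 (log2 fold change -0.78, SE 0.55). Cd274 was at 204 and 138 against 210.2 and 356, without overlap (0.73, SE 0.43), at an adjusted p of 0.980 by edgeR's quasi-likelihood test.

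Of 36 genes of hypoxia and glycolysis tested, 34 had a positive log2 fold change and the median was 0.45. Over all 8248 genes, 4162 were above 0 and the median was 0.01; the difference of the list from the rest was not tested. Library values of 16 did not overlap and were higher under NP137, against 15.3% of all genes. In the same way 1 was lower, against 17.4% of all genes, and 0 passed the test. Ldha, which forms lactate, was at 888 and 891 in controls and 1148 and 1497 under NP137 (0.57, SE 0.39). Mif, a cytokine that low oxygen induces, was at 925 and 775 against 1347 and 1266 (0.62, SE 0.38), and Bnip3, a mitophagy receptor, at 141 and 210 against 211 and 329 (0.63, SE 0.42). Ankrd37, another target of low oxygen, was at 47.9 and 78.4 against 83.9 and 113 (0.66, SE 0.41). Adm, the vasodilator adrenomedullin, had the largest difference, 21.5 and 2.70 against 53.9 and 67.7 (2.20, SE 0.68). It was less abundant in the members than in the other barcodes in some or all NP137 libraries. Hilpda, Vegfa and Slc2a1, the glucose transporter gene, overlapped. The list's median was 0.21 without NP137 2, with 24 of 36 genes above 0, and 0.26 with the stricter filter of at least 500 genes and under 10% mitochondrial UMIs, with 29 of 36.

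**Figure D5:**
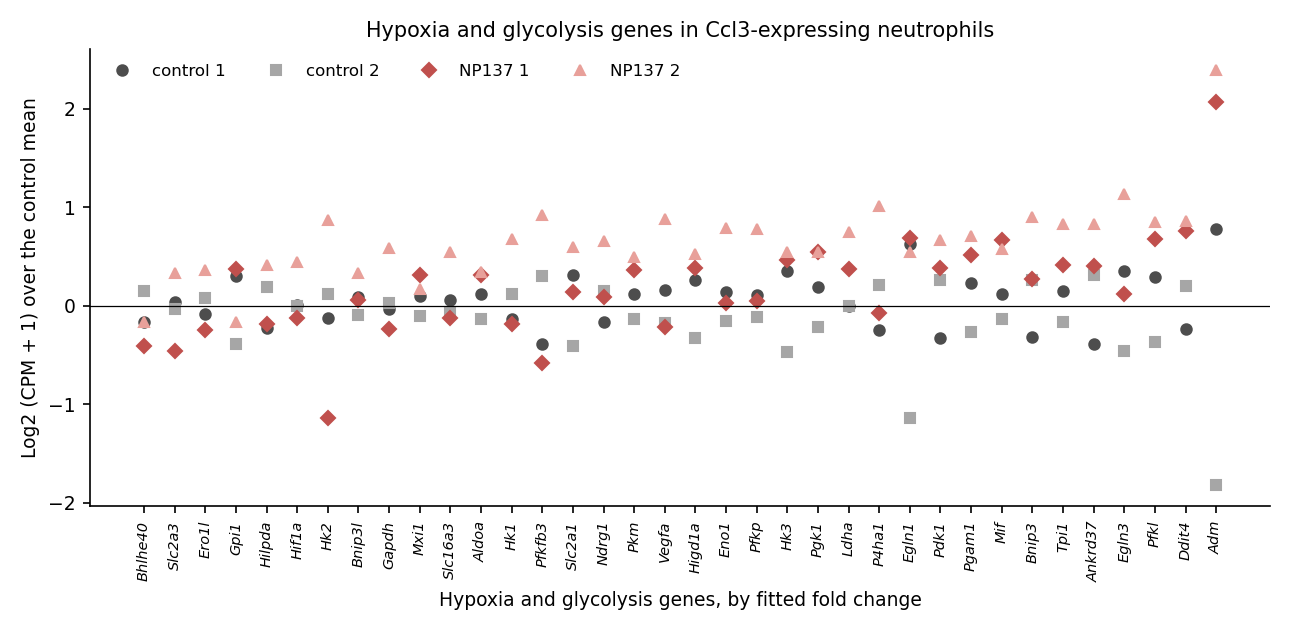
Log2 of CPM plus 1 in each library over the mean of the controls (vertical axis) for the 36 hypoxia and glycolysis genes, ordered by fitted fold change, 1 point per library. The NP137 2 triangles lie above 0 for most genes, while the NP137 1 diamonds lie nearer the controls, and Adm at the right end shows the largest difference (fitted log2 fold change 2.20).

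Of 22 interferon genes 15 were above 0 (median 0.47), 2 of them without overlap, and 0 passed the test. Of 12 chemokine genes 8 were above 0 (median 0.15) and 1 was without overlap. Over all 8248 genes 15.3% were higher without overlap, a share that neither list exceeded. Of 31 NF-kB genes 14 were above 0 (median -0.08), of 25 circulating neutrophil genes 20 (median 0.22) and of 31 tumour-associated neutrophil genes 23 (median 0.18). The sign of some of these medians rested on the filter and on NP137 2. With the stricter filter 9 of 31 tumour-associated genes (median -0.12) and 5 of 12 chemokine genes (-0.09) were above 0, and without NP137 2 12 of 31 (-0.06) and 5 of 12 (-0.19). The NF-kB median turned to 0.07 with S100a8 and S100a9 at 3% or with doublets removed, and to 0.04 without NP137 1. All 13 mitochondrially encoded genes were below 0, with a median of -1.23, and control 2 was the library that set it: mt-Co1, a cytochrome oxidase subunit, was at 5183 and 14173 in controls and 4162 and 4018 under NP137, and the list's median was -0.34 without control 2. All 6 class II antigen presentation genes tested were above 0, with a median of 2.21 and no overlap, among them Cd74, the invariant chain, at 159 and 115 against 348 and 739 (1.99, SE 0.48). DESeq2 called 3 of the 6 and edgeR 0. Each of the 6 was less abundant in the members than in other barcodes in some or all NP137 libraries. The 7 listed class II genes summed to 287, 230, 698 and 1392 CPM in the members and 2553, 1819, 2243 and 3621 CPM in the non-neutrophil barcodes, and B or plasma cell markers were high in NP137 2 alone, as given above. The part of RNA from other cells was not tested.

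Of netrin ligands and receptors, 6 were tested. Each was less abundant in the members than in the other barcodes in some or all libraries of the group with the higher level. Ntn1, the gene of netrin-1, was at 36.1 and 9.47 in controls and 3.53 and 1.15 under NP137 (log2 fold change -3.72, SE 0.83), at an adjusted p of 0.500 by edgeR's quasi-likelihood test. Unc5b, a netrin receptor, was at 25.0 and 56.8 against 13.2 and 17.2, and Neo1, another, at 18.7 and 13.5 against 5.30 and 6.17.

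The genes named for their small p were likewise less abundant in the members than outside the neutrophils in some or all libraries of the group with the higher level. Pgf, placental growth factor, was at 8.32 and 5.41 in controls and 46.8 and 40.4 under NP137 (log2 fold change 2.60, SE 0.50). Mmp13, a collagenase, was at 72.1 and 32.5 against 537 and 223 (2.83, SE 0.58). Lrig1, a marker of hair follicle stem cells, was at 52.7 and 64.9 against 7.95 and 4.45 (-3.36, SE 0.50), with an adjusted p of 0.266 by edgeR's quasi-likelihood test. Flnc, Hmcn1, Auts2, Slco2a1 and D830025C05Rik were lower by -3.07 to -2.30. Of 551 genes that were at least 2-fold more abundant in the members than in the other barcodes, 0 were called by edgeR and 0 by DESeq2. Of all 8248 genes edgeR also called 0, and DESeq2 called only 0.097% higher and 0.182% lower. The 0 of 551 is thus near the share over all genes and is not read as a result about these genes.

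Whether the response to NP137 differed between Ccl3-expressing and Ccl3-zero neutrophils was tested as an interaction, with the library as a block. Of 9179 genes, edgeR's quasi-likelihood test called 6 (0.0654%) with a higher and 2 (0.0218%) with a lower response in the members, while 409 genes had an unadjusted p under 0.05. The numbers from DESeq2 were 2 (0.0218%) and 1 (0.0109%). Each of the 8 was less abundant in the members than in other barcodes in some or all libraries of the group with the higher level, but not all were so in every library. The largest were the haemoglobin genes Hbb-bt and Hba-a1, with differences of 5.37 and 4.98 on the log2 scale. In control 1 Hbb-bt was at 319 CPM in Ccl3-zero neutrophils and 26.8 CPM in the members, and without control 1 the test called 0 genes. With doublets removed, the difference of Hbb-bt was 0.53, at an adjusted p of 1 by edgeR. Of the markers other than Ccl3, which the rule sets to 0 in one of the gates, Cxcl3 had a difference of -0.53 (SE 1.00), Hcar2 of -0.49 (SE 0.24), Il1rn of -0.17 (SE 0.24) and Hilpda of -0.15 (SE 0.24), and 0 were called. Of 579 genes at least 2-fold more abundant in the members than outside the neutrophils 0 were called. With only 0.0654% and 0.0218% of all 9179 genes called by edgeR, this 0 is near the overall share and is not read.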

How the data were processed

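Single-cell RNA of LKPR skin tumours was measured in 2 control and 2 NP137 libraries. The authors deposited raw UMI counts per gene and barcode for 31053 genes and a YFP row, written by 10x software 3.0.2 per the file headers. The submitters' processing notes name mm10 and Seurat 3.1.5, with aligner settings not given in the sources used here, and the labels name both V2 and V3 kits. The rule was applied to the counts as deposited, with no doublets removed. The members, the 30 gene lists and the tests were chosen with earlier results of these data known. Il36g was matched as Il1f9, and 2 listed symbols had no match. Some items, 1 allele of the mice among them, are not reported here.

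Counts were summed per library over Ccl3-expressing and Ccl3-zero neutrophils (each sum with at least 20 cells). NP137 was compared with control by edgeR 4.0.16 (glmQLFit, robust, TMM, filterByExpr; limma 3.58.1, R 4.3.3) with Benjamini-Hochberg adjustment and a threshold of 0.05, and the response difference by an interaction with library as a block. Shares were compared by exact permutation over the 6 assignments of libraries. The contrast of the members with Ccl3-zero neutrophils was described by log2 ratios of CPM with 10 CPM added, without a test. Genes named were the 15 most different in each direction in that contrast, the 10 largest that passed or otherwise the 6 of smallest p in the fits (mean of at least 20 CPM, no overlap), list members and the 5 markers; genes of the within-member split were chosen from its 15 most different in each direction. Scripts used Python 3.11.15, scanpy 1.11.5, scipy 1.17.1, matplotlib 3.10.9, pandas 2.3.3 and numpy 2.4.6.

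Alternatives were a Ccl3 threshold of 3 or 1 UMIs, S100a8 and S100a9 at 3%, at least 500 genes with under 10% mitochondrial UMIs, removal of the highest Scrublet scores (0.8% per 1000 barcodes), thinning to 1000 or 500 UMIs, 50 CPM added, DESeq2 1.42.0, edgeR with DESeq2's size factors, all genes with at least 1 UMI, the sample number as a block, and each library left out. Calls restricted to genes at least 2-fold above the non-neutrophil barcodes were added after seeing the data. For the fits, members and non-neutrophil barcodes were compared in the libraries of the group where a gene was higher, by the smallest ratio. The fits were tested on simulated data with known changes.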

Additional observations from a re-analysis of the deposited data

Results flagged for a closer look

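The response to NP137 differed between Ccl3-expressing and Ccl3-zero neutrophils for 8 genes by the test of the difference itself (edgeR's quasi-likelihood interaction test with Benjamini-Hochberg adjustment over 9179 genes). The response was higher in the members for Hbb-bt (5.37 on the log2 scale), Hba-a1 (4.98), the pentraxin Ptx3 (3.23), the chemokine Cxcl5 (2.96), Cpxm1 (2.24) and the protease inhibitor Cst6 (2.21). It was lower for Ctsk (-3.22) and Acp5 (-4.72), both typical of osteoclasts. Hba-a1 was at 56.4, 4.01, 185 and 166 CPM in the members and 635, 4.78, 45.5 and 68.3 CPM in Ccl3-zero neutrophils, in the order control 1, control 2, NP137 1 and NP137 2. Acp5 was at 209.8, 26.7, 26.1 and 67.9 CPM in the members and 16.5, 4.78, 27.4 and 200.9 CPM in Ccl3-zero neutrophils. In control 2 the Ccl3-zero sum held only 184319 UMIs from 42 cells, so 4.78 CPM lies near the floor of counting. Without control 1 the differences were -2.52 for Hbb-bt, 1.82 for Hba-a1 and -3.70 for Acp5. Haemoglobin genes have near-identical copies among which reads may be split. Each of the 8 genes was less abundant in the members than in non-neutrophil barcodes in some or all libraries of the group with the higher level. The haemoglobin genes were more abundant in the members of NP137 1. There, scaled to total UMIs alone, Hbb-bt was at 71.6 CPM against 21.5 CPM outside the neutrophils and Hba-a1 at 182 against 46.0 CPM. The part of RNA from other cells was not tested.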

How the results depend on the processing

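The mean share of neutrophils that expressed Ccl3 was lower under NP137 in every setting, by -19.7 to -6.03 percentage points, with exact permutation p of 0.33 to 1. Leaving out 1 library gave differences of -33.5 to -0.556, the last without NP137 1. The lower mean rested on NP137 1. NP137 2 was the highest of the 4 libraries with the stricter cell filter (71.8%), at 1000 UMIs (64.4%) and at 500 UMIs (52.1%). Genes at least 2-fold higher in the members numbered 4 to 7 by setting and 5 to 9 with 1 library left out (9 without NP137 1). Genes at least 2-fold lower numbered 3 when thinned to 1000 UMIs and 0 to 5 with 1 library left out (5 without NP137 1). For NP137 against control, DESeq2 called 23 genes, edgeR without a filter on low counts 117, and edgeR with 1 library left out 1 to 118: 43 without control 1, 1 without control 2, 118 without NP137 1 and 18 without NP137 2. Those fits leave 1 group with a lone library, which is assumed to vary like the others. The other settings called 0. The sample number as a replicate block also gave 0. Deviations of same-numbered libraries from their group means correlated at 0.163. With 2 libraries a group, both pairs give this value by construction, so it counts as a single value. The labels do not say that the numbers pair libraries.

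The response difference was called for 4 genes with at least 3 Ccl3 UMIs, 4 with S100a8 and S100a9 at 3%, 4 with the stricter cell filter, 16 with doublets removed, 3 by DESeq2, 24 without a filter on low counts, 0 among genes at least 2-fold above the non-neutrophil barcodes, and 0 to 29 with 1 library left out (0 without control 1, 6 without control 2, 15 without NP137 1 and 29 without NP137 2). Hbb-bt ranged from -2.52 (without control replicate 1, a reversal) to 5.95 with 1 library left out, and was 0.53 with doublets removed; with S100a8 and S100a9 at 3% Cst6 reversed to -0.40 and Mmp3 to -0.17. The cause was not tested. Shallow cells limit what single barcodes show, and 132 members and 42 Ccl3-zero neutrophils in control 2 limit that library's sums.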
